A study of Mus musculus with 40 samples.

Results

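The genes described here are 36 genes of protein folding and degradation in the endoplasmic reticulum (ER), measured by bulk RNA sequencing in cultured mouse oligodendrocytes. They are 12 chaperones and cochaperones, 10 disulfide-forming enzymes (oxidoreductases) and 14 genes of ER-associated degradation (ERAD). The genes were listed by function, with earlier results of these data known. They were found in the gene count table by matching its Ensembl identifiers to symbols. All 36 were found among the 39056 genes of the table, and all 36 were among the 15135 genes that passed a filter on low counts. Derl3 passed that filter only because of its counts in thapsigargin-treated cells, so counts and medians for thapsigargin are also given over the other 35. After 8 h of thapsigargin those 35 genes were higher, against 29.6% of all genes, by 0.88 to 5.08 on the log2 scale, and the class median was highest for the chaperones. After 1 h 11 of the 35 were higher, against 6.61% of all genes. With interferon gamma (IFN-gamma) the shares of the 36 genes that were higher or lower at 8 h and 24 h lay near or below those over all genes, and at 48 h 2 were higher and 9 lower, against 16.9% and 19.9% of all genes.

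The cells were wild-type C57BL/6. The labels give an age of 6-7 days and the tissue as whole brain, whereas the growth protocol names the cortices of 6 day old pups. Oligodendrocyte progenitors were purified by immunopanning (capture on antibody-coated plates), expanded over 2 passages, and left to differentiate for 12-14 h before plates were assigned to a treatment at random. The 40 libraries form 10 groups of 4: untreated at 1, 8, 24 and 48 h, IFN-gamma at 200 U/ml for 1, 8, 24 and 48 h, and thapsigargin at 200 uM, the dose as labelled, for 1 and 8 h. Thapsigargin blocks the pump that fills the ER with calcium, and IFN-gamma is a cytokine of T cells and natural killer cells. The labels do not say which libraries come from separate litters or cultures, so the p-values here rest on a spread between libraries that may be technical.

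Proteins that enter the ER are folded by chaperones such as the Hsp70 protein BiP (encoded by Hspa5) and by the lectins calnexin and calreticulin, while disulfide isomerases form and rearrange their disulfide bonds. Chains that fail to fold are recognised by mannosidases and lectins, moved back to the cytosol through a membrane complex built around the ligase Hrd1 (Syvn1) and its partner Sel1l, and degraded by the proteasome. When unfolded protein accumulates, the sensors PERK, IRE1 and ATF6 start the unfolded protein response, in which XBP1, ATF6 and ATF4 raise transcription of many of these genes. Myelinating cells pass large amounts of membrane protein and lipid through the ER.

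All 8 oligodendrocyte lineage markers were above 1 CPM (counts per 1000000 reads on genes, after TMM scaling of the library sizes) in every group. Their summed level was 6570 to 7304 CPM in untreated cells at 8 h, against 295 to 391 CPM for 7 astrocyte markers and 73.2 to 82.8 CPM for 9 neuron markers. Markers of microglia, of endothelial and mural cells and of fibroblasts summed to at most 4.92, 11.6 and 10.01 CPM in any library. Each library held 13165483 to 22651092 reads on genes. The number of genes with reads ran from 18070 (untreated 8 h replicate 3) to 31854 (untreated 24 h replicate 4). The TMM factor was 0.748 in IFN-gamma 1 h replicate 2 and 0.918 to 1.08 in all other libraries. The summed level of 3 Y-linked genes was at most 6.08 CPM in 8 of the 16 IFN-gamma libraries, 14.6 and 20.6 CPM in 1 thapsigargin library at 8 h and 1 at 1 h, and 103 to 299 CPM in all others. The low libraries were all treated ones, so this difference cannot be fully told apart from treatment.

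The promoters of the genes were compared first, because a known DNA element recurs in them. The ER stress element, bound by ATF6 with NF-Y, reads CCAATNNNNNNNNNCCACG, where N is any base. A promoter was taken as the 250 bases before to 50 bases after the gene's annotated start, in RefSeq (build GRCm38.p6), and both strands were searched. The table held a promoter for 30 of the 36 genes. Derl1, Erlec1, Hyou1, Manf, Sil1 and Ube2g2 were not matched. The element was found in 10 of the 30 genes (33.3%), and in 37 of all 27025 genes with a promoter of the same length (0.137%). A gene with several promoters was counted if any of them held the element. Of the genes with a promoter, 6 of 9 chaperones, 2 of 10 oxidoreductases and 2 of 11 ERAD genes held it. The stretches that hold it are shown with 15 bases on each side, on the gene's own strand, 5′ to 3′, with the fixed bases of the element in capitals. Where the element lies on the other strand, the capitals read CGTGG and then ATTGG.
Hspa5, chr2:34772010-34772058 (+): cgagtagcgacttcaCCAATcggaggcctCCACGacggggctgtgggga
Canx, chr11:50325785-50325833 (-): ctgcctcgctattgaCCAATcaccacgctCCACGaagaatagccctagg
Calr, chr8:84847060-84847108 (-): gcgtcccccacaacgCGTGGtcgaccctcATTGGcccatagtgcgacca
Dnajc3, chr14:118937812-118937860 (+): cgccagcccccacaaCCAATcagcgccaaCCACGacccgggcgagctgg
Creld2, chr15:88819505-88819553 (+): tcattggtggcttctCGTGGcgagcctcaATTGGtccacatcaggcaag
Hsp90b1, chr10:86705518-86705671 (-): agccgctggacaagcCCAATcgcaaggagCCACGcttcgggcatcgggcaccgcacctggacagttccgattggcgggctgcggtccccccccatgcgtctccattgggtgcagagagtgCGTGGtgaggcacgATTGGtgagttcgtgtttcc
Pdia6, chr12:17266476-17266524 (+): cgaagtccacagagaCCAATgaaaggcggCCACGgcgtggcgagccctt
Ero1lb, chr13:12565667-12565715 (+): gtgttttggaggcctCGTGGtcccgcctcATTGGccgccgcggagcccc
Syvn1, chr19:6046517-6046565 (+): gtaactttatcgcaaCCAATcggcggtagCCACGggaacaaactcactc
Derl3, chr10:75893227-75893275 (+): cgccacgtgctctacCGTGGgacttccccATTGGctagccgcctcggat

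Hsp90b1 held 2 copies, 1 on each strand. A second form of the element, ATTGGNCCACG, was found in 2 of the 30 genes and in 12 of all 27025 genes (0.0444%). In Dnajb11, a J-domain cochaperone of BiP, it lies after the annotated start. In Herpud1, a membrane subunit of the Hrd1 complex, it lies before the start, and its stretch is shown in the same way.
Herpud1, chr8:94386362-94386402 (+): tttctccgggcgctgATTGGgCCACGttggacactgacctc

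The letters TGACGTGG, a site named for XBP1 and ATF6, were in the promoters of Txndc5, Txndc11 and Ube2j1 (3 of 30, against 0.714% of all genes with a promoter). A composite site of ATF4 and CHOP was searched in 2 forms. TGATGNAAT was in 0 of the 30 and in 1.08% of all genes with a promoter, and TTGCATCA was in Herpud1 alone and in 1.03% of all. None of these letter searches overlapped another match in these promoters. A match is a description of the letters, not of a bound site.

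**Figure D1:**
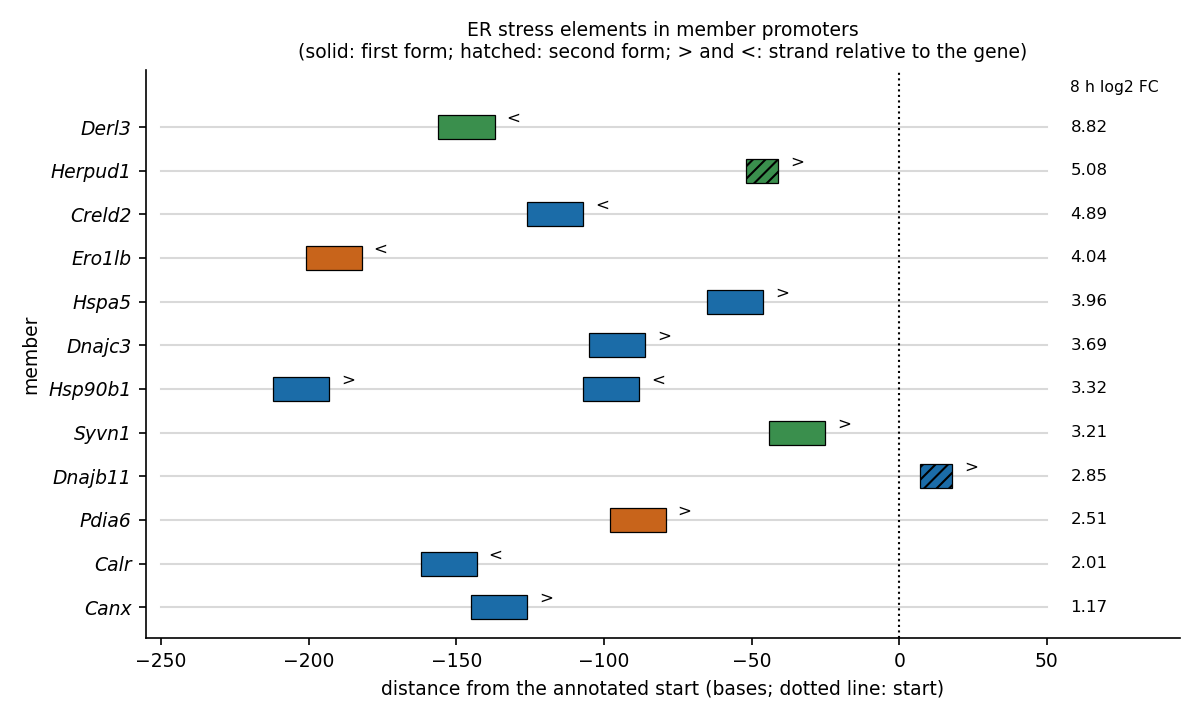
Position of the ER stress elements in the promoters of 12 genes, in bases from the annotated start (dotted line), with the log2 fold change after 8 h of thapsigargin at the right. Solid bars are the first form and hatched bars the second; all but the element of Dnajb11 lie before the start.

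Within 1 h of thapsigargin 12 of the 36 genes were higher than at 1 h without treatment and 0 were lower (edgeR's quasi-likelihood test, Benjamini-Hochberg adjusted p under 0.05 over all 15135 genes, here termed called). Of all genes 6.61% were called higher and 2.18% lower. The 12 were 6 chaperones (Hspa5, Hsp90b1, Hyou1, Dnajb9, Creld2 and Manf), 2 oxidoreductases (Pdia4 and Ero1lb) and 4 ERAD genes (Herpud1, Syvn1, Derl2 and Derl3). The median log2 fold change over the 36 was 0.15, against -0.02 over all genes, with class medians of 0.28 for chaperones, 0.16 for oxidoreductases and 0.10 for ERAD genes. Without Derl3 the count was 11 of 35 and the median 0.14 (0.09 for ERAD genes).

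Hspa5 (BiP, the main Hsp70 of the ER) stood at 511, 542, 576 and 539 CPM in the 4 untreated libraries at 1 h. With thapsigargin it stood at 830, 769, 847 and 1000 CPM. The groups did not overlap, and the log2 fold change was 0.67 ± 0.07 (SE; adjusted p = 1.104e-08 by edgeR). Hyou1, a nucleotide exchange factor for BiP, went from 148 to 166 CPM across untreated libraries to 205, 205, 205 and 241 CPM, a log2 fold change of 0.44 ± 0.07. Dnajb9 (ERdj4), a J-domain partner of BiP, was at 9.31 to 11.2 CPM untreated and at 15.4, 15.3, 19.1 and 24.4 CPM treated (0.82 ± 0.12). Creld2, a soluble ER protein, was at 32.8 to 35.9 CPM untreated and at 47.1, 38.3, 41.3 and 60.5 CPM treated (0.44 ± 0.10). In each of these 3 genes every treated library lay above every untreated one. Hsp90b1 (Grp94, the Hsp90 of the ER) rose by 0.36 ± 0.07 and Manf, a secreted factor that binds BiP, by 0.39 ± 0.09.

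The other 6 chaperones were not called at 1 h. The lectins Calr and Canx had log2 fold changes of 0.12 ± 0.08 and 0.10 ± 0.06. Sdf2l1, a partner of J-domain cochaperones, was the least changed of the class in absolute terms: its 4 treated libraries (66.2, 52.3, 54.2 and 62.7 CPM) overlapped the untreated ones (58.2, 60.1, 58.2 and 49.3 CPM). Its log2 fold change was 0.06 ± 0.10 (adjusted p = 0.798).

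Among the oxidoreductases Pdia4 (ERp72) was at 196, 204, 205 and 205 CPM untreated and at 229, 232, 238 and 272 CPM treated, without overlap (0.26 ± 0.06, adjusted p = 0.002248). Ero1lb, an oxidase that passes electrons from disulfide isomerases to oxygen, was at 6.98 to 8.42 CPM untreated and at 8.68, 7.58, 11.7 and 9.99 CPM treated. The lowest treated library fell inside the untreated range, and the call (0.32 ± 0.10, adjusted p = 0.03662) was lost in 8 of 17 alternatives: without thapsigargin replicate 3 (0.20) or 4 (0.29), without untreated 1 h replicate 1 (0.32), 3 (0.31) or 4 (0.28), without the filter (0.33), in the 2 groups alone (0.32) and in the lower 20 library numbers alone (0.01). The isomerase P4hb (-0.07 ± 0.05) and Dnajc10, a reductase with a J domain (-0.06 ± 0.04), were not called. Dnajc10 was at 138 to 156 CPM untreated and at 140 to 146 CPM treated.

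Herpud1 showed the highest called fold change among ERAD genes with more than 1 CPM. Its untreated libraries at 1 h were at 35.02, 31.7, 30.7 and 29.4 CPM and its treated libraries at 66.3, 50.8, 56.1 and 103 CPM, a log2 fold change of 1.12 ± 0.13 (adjusted p = 7.133e-08). All treated libraries lay above the untreated ones, and replicate 4 was highest. Syvn1, the ligase Hrd1, was at 21.2 to 26.4 CPM untreated and at 31.01, 31.5, 28.1 and 37.3 CPM treated (0.47 ± 0.10). Derl2, a derlin of the membrane channel, was at 44.7 to 47.6 CPM untreated and at 57.7, 52.4, 47.8 and 74.5 CPM treated (0.34 ± 0.08).

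Derl3, the derlin that is near silent in unstressed cells here, had 2 to 7 reads per untreated library at 1 h and 14 to 24 reads per treated library. Since it entered the test only through its treated libraries, its call is not counted as support. Its fitted log2 fold change was 1.81 in the gene count table and 0.33 in the separate table of estimated transcript counts, summed per gene, where it was not called (adjusted p = 0.5396). None of the 5 mannosidases and lectins and none of the 3 genes of ubiquitin conjugation or p97 recruitment was called at 1 h. Ubxn4, which recruits p97 to the ER membrane, was at 126, 128, 110 and 111 CPM untreated and at 116, 113, 117 and 132 CPM treated (0.01 ± 0.07).

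Replicate 4 of thapsigargin at 1 h was the highest of its group in 11 of the 12 called genes and in 18 of the 36. Without it 10 genes were called: Ero1lb and Derl2 (0.20, adjusted p = 0.06497) were lost. The lower 20 library numbers alone, with 2 libraries a group, gave 2 calls, Hspa5 (0.59) and Herpud1 (0.79), while the upper 20 alone gave 11. The median over the 36 genes was 0.10 within the lower and 0.17 within the upper numbers. In a fit of only the 2 groups compared, 11 genes were called higher and 1 lower.

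**Figure D2:**
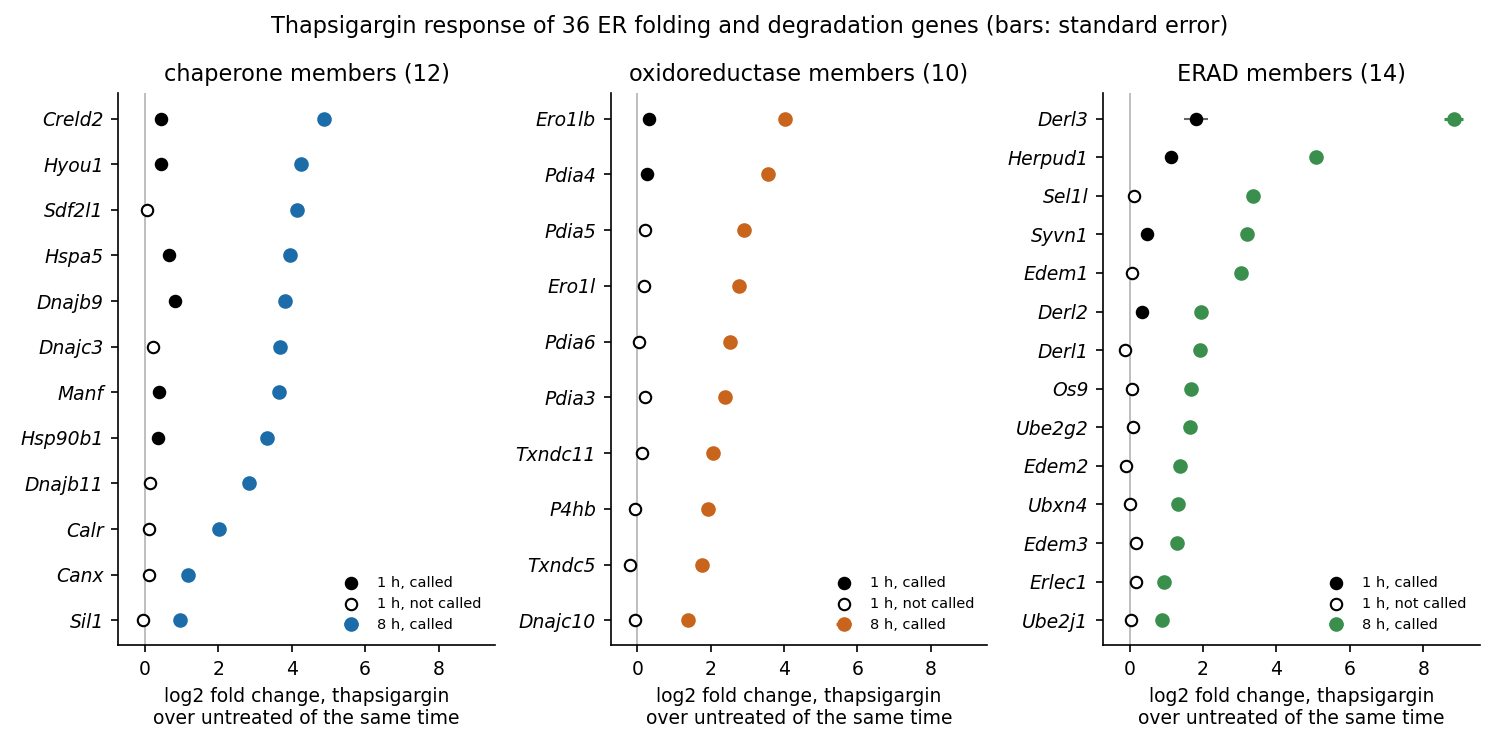
Log2 fold change of each gene after thapsigargin against untreated cells of the same time (x axis), at 1 h in black (filled, called; open, not called) and at 8 h in colour, with standard errors, in 1 panel per class. Every 8 h point lies to the right of its 1 h point, and the chaperone panel holds 8 genes at or above 3.

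By 8 h of thapsigargin all 36 genes were called higher than in untreated cells of that time, and the libraries of the groups did not overlap in any of them. The share of all genes without overlap is not given here, so only the calls are set against a background. Of all genes 29.6% were called higher and 31% lower, with a median log2 fold change of -0.01. The median over the 36 was 2.65, with class medians of 3.68 for chaperones, 2.46 for oxidoreductases and 1.79 for ERAD genes. Without Derl3 all 35 were called higher, with medians of 2.51 over the 35 and 1.67 for ERAD genes. A log2 fold change of 3 or more was reached by 8 of 12 chaperones, 2 of 10 oxidoreductases and 5 of 14 ERAD genes, Derl3 among them. A value under 2 was found in 2, 3 and 9 genes of the 3 classes. These class differences are descriptions and were not tested.

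Together the 36 genes took 0.588 to 0.641% of scaled reads in untreated libraries at 8 h and 4.48 to 4.67% with thapsigargin. The summed chaperone level was 3758 ± 166 CPM (SD, n = 4) untreated and 31580 ± 670 CPM treated, 8.40 times as high. The summed oxidoreductase level went from 1495 ± 78.1 to 8638 ± 137 CPM, 5.78 times as high. The summed ERAD level went from 929 ± 22.8 to 5651 ± 179 CPM, 6.08 times as high. At 1 h the same ratios were 1.22, 1.05 and 1.10.

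Creld2 led the chaperone class, with 43.4, 32.1, 34.9 and 34.3 CPM in the untreated libraries at 8 h. With thapsigargin it stood at 1110, 1111, 1035 and 1034 CPM, a log2 fold change of 4.89 ± 0.11 (adjusted p = 1.843e-28). Hyou1 went from 176, 164, 185 and 170.0 CPM to 3413, 3280, 3141 and 3364 CPM (4.25 ± 0.08). Sdf2l1, which had not been called at 1 h, went from 53.8, 42.9, 44.6 and 43.3 CPM to 879, 870.2, 793 and 723 CPM (4.14 ± 0.11). The treated libraries of these genes lay more than 10-fold above the untreated ones.

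Hspa5 went from 690, 589, 630 and 596 CPM to 10250, 9786, 9483 and 9338 CPM, a log2 fold change of 3.96 ± 0.08 (adjusted p = 1.489e-30). Per kilobase of exon, Hspa5 was the fourth of the 36 in untreated cells at 8 h (148 ± 10.9 CPM per kb), behind Calr (300.2 ± 12.7), Canx (195 ± 9.95) and Hsp90b1 (180 ± 15.4). Canx and Hsp90b1 lay within their spread of each other. With thapsigargin Hspa5 had the highest level per kilobase (2297 ± 95.5), ahead of Hsp90b1 (1797 ± 57.4), Calr (1212 ± 43.5) and Pdia4 (1176 ± 28.5), the last 2 of which lay within their spread.

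The 3 J-domain cochaperones Dnajb9, Dnajc3 and Dnajb11 rose by 3.82, 3.69 and 2.85, and Hsp90b1 and Manf by 3.32 and 3.66. The lectins rose less, Calr by 2.01 and Canx by 1.17. Sil1, the other exchange factor for BiP, had the smallest rise of the class (0.95 ± 0.08) and had been at -0.06 at 1 h. So the pair of exchange factors for BiP stood at 4.25 (Hyou1) and 0.95 (Sil1).

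In the oxidoreductase class Ero1lb rose most, from 7.51, 7.64, 7.07 and 7.85 CPM to 127, 132, 114 and 122 CPM (4.04 ± 0.10, adjusted p = 1.402e-27). Pdia4 went from 248, 229, 242 and 236 CPM to 2917, 2816, 2796 and 2757 CPM (3.56 ± 0.06). Pdia5, low in these cells, went from 7.96, 4.26, 4.64 and 5.78 CPM to 44.0, 37.2, 45.5 and 42.7 CPM (2.90 ± 0.17). All treated libraries of these 3 lay far above the untreated ones.

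Ero1l, the other Ero1 oxidase, went from 22.5, 21, 24.1 and 24.98 CPM to 161, 174, 149.9 and 153 CPM (2.79 ± 0.09). Pdia6 and Pdia3 (ERp57, the partner of the lectin chaperones) rose by 2.51 and 2.40, Txndc11 by 2.07, P4hb by 1.94 and Txndc5 by 1.77. The smallest rise was that of Dnajc10 (1.39 ± 0.04), whose libraries were at 147 to 155 CPM untreated and at 393 to 401 CPM treated. Within the class the rise thus ran from 1.39 to 4.04.

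Herpud1 went from 37.97, 37.3, 36.3 and 29.98 CPM to 1304, 1246, 1111 and 1116 CPM (5.08 ± 0.14, adjusted p = 4.411e-26). Sel1l, the adaptor that holds the Hrd1 complex together, went from 181, 181, 181 and 195 CPM to 1840, 1942, 1827 and 1962 CPM (3.36 ± 0.07). Syvn1 went from 24.1, 26.9, 28.4 and 30.4 CPM to 281, 272, 207 and 254 CPM (3.21 ± 0.10). The 3 genes of the ligase complex were thus all above 3.

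The derlins were unequal. Derl3 had 2 to 4 reads per library untreated, 13 in all, and 1196 to 1880 reads per library with thapsigargin (76.99 to 95.01 CPM). Its fitted log2 fold change was 8.82 from the gene counts and 5.77 from the transcript table. Its size thus rests on few untreated reads and on the counting, and, as at 1 h, its call is not counted as support. Derl1 and Derl2 rose by 1.91 ± 0.08 and 1.94 ± 0.08.

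Among the mannosidases that trim misfolded glycoproteins, Edem1 went from 48.4 to 53.8 CPM across untreated libraries to 439, 450.1, 396 and 417 CPM (3.03 ± 0.12). Edem2 and Edem3 rose by 1.38 and 1.30. The lectins Os9 and Erlec1, which bind the trimmed chains, rose by 1.67 and 0.93. The ubiquitin-conjugating enzymes Ube2g2 and Ube2j1 rose by 1.64 and 0.88, and Ubxn4 by 1.31. Ube2j1, at 52.4 to 58.8 CPM untreated and 102 to 107 CPM treated, had the smallest rise of the 36.

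Most of the response thus came after 1 h. The 8 h effect exceeded the 1 h effect in all 36 genes by the test of the difference itself (0 in the other direction), against 22.7% of all genes called higher and 24.8% called lower. The median difference was 2.53 over the 36 and -0.01 over all genes, with 3.14 for chaperones, 2.32 for oxidoreductases and 1.61 for ERAD genes. Without Derl3 all 35 were called higher, with a median difference of 2.46 (1.60 for ERAD genes). The difference was 0.74 in Erlec1, 0.83 in Ube2j1 and 1.01 in Sil1, the 3 smallest, and, leaving aside Derl3 (7.02), 4.45 in Creld2, 4.08 in Sdf2l1 and 3.96 in Herpud1, the 3 largest. Across the 36 genes the 1 h and 8 h log2 fold changes had a Spearman rho of 0.721, or 0.696 without Derl3. These are points from the same libraries, described without a test. Sdf2l1 was high at 8 h and not called at 1 h, as were Dnajc3 (0.21 at 1 h, adjusted p = 0.1344) and Sel1l (0.11).

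**Figure D3:**
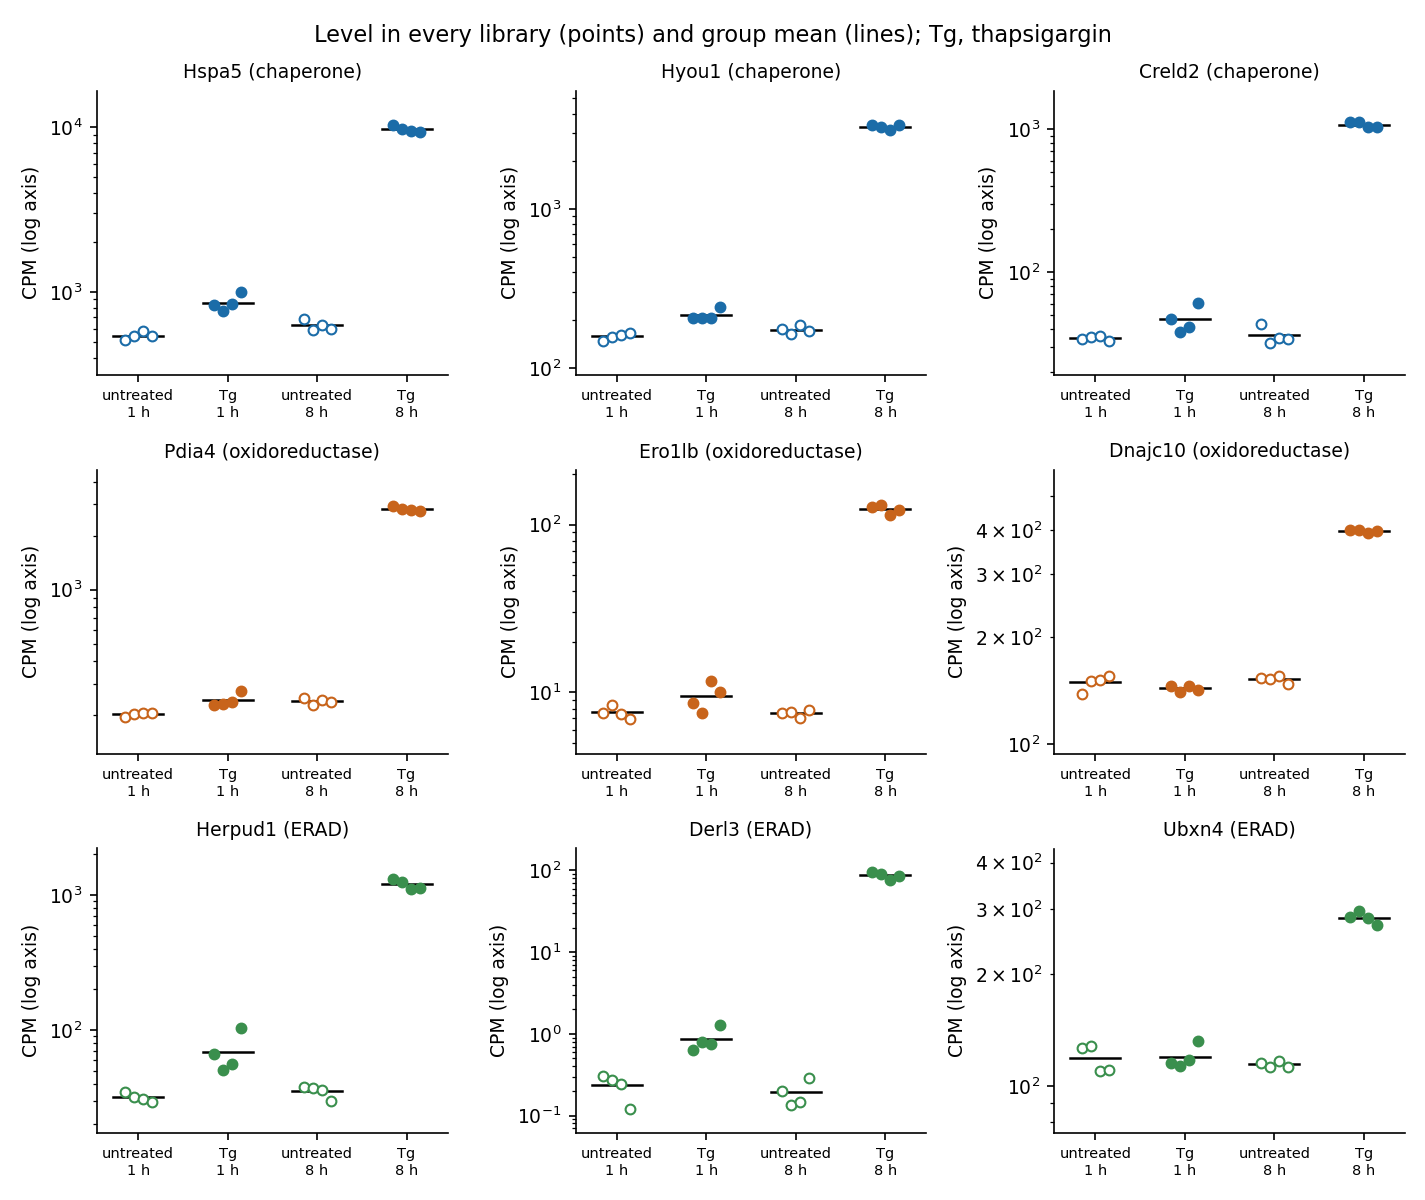
Level of 9 genes in every library (points, CPM on a log axis) with the group mean (line), for untreated and thapsigargin (Tg) cells at 1 h and 8 h. The 4 libraries of thapsigargin at 8 h lie above all others in each panel, for Hspa5 between 9338 and 10250 CPM.

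The 10 genes with the ER stress element had median log2 fold changes of 0.34 at 1 h and 3.51 at 8 h (1.17 for Canx to 8.82 for Derl3). Without Derl3 the other 9 had medians of 0.32 and 3.32 (up to 4.89 for Creld2). The 20 with a promoter but without this element had 0.12 and 2.23 (0.88 for Ube2j1 to 5.08 for Herpud1, which holds the second form). At 1 h 6 of the 10 (5 of 9 without Derl3) and 4 of the 20 were called higher, against 6.61% of all genes. Both sets overlap widely at 8 h: Canx and Calr hold the element and rose by 1.17 and 2.01, while Sdf2l1, Pdia4 and Sel1l, without these letters in this window, rose by 4.14, 3.56 and 3.36. Of the 27 other mouse genes with the element, 10 passed the filter. At 8 h 7 of these 10 were called higher and 2 lower (median 0.92), against 29.6% and 31% of all genes. They include Alg12, a glycosylation enzyme, which rose by 0.59 at 1 h and 2.76 at 8 h. Its promoter window shares 173 bases and the same element, at chr15:88819520-88819538, with that of Creld2.

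Hyou1 also differed between groups in the make-up of its transcripts, a case chosen after its values were seen and given without a test. Of 9 transcripts in the table of estimated counts, ENSMUST00000066601.12 held 55.2 ± 3.01% (SD, n = 4) of the gene's count in untreated cells at 8 h and 31.1 ± 3.21% with thapsigargin. ENSMUST00000161318.7 held 20.5 ± 4.56% and 38.3 ± 1.38%. The libraries of the groups did not overlap for either transcript, with 51.2 to 58.2% against 26.8 to 34.6% for the first and 14.5 to 24.8% against 37.0 to 39.6% for the second.

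Other genes of the same pathways, from lists of genes outside the 36, moved less evenly. These lists, like the 36, were drawn up with earlier results of these data known, so the contrast is only described. Of all genes 29.6% were called higher and 31% lower at 8 h. Of 44 further ER folding genes 42 were tested, and at 8 h 30 were called higher and 5 lower (median 0.58). Fkbp11 (5.71), Kdelr3 (4.48) and Serpinh1 (4.10) rose most, and Clgn (-0.81), Cnpy4 (-0.66) and Txndc15 (-0.36) fell most. Of 34 further ERAD genes 19 were higher and 2 lower (median 0.41), led by Selenos (3.16), Rhbdd1 (2.22) and Ufl1 (2.08), with Trim13 (-0.94) and Svip (-0.51) lower. At 1 h 4 of the 42 and 3 of the 34 were higher and 0 lower, against 6.61% and 2.18% of all genes. All 10 listed sensors and transcription factors of the unfolded protein response were higher at 8 h, and 6 at 1 h. Ddit3 (CHOP) rose by 2.53 at 1 h and 6.42 at 8 h, Atf4 by 1.11 and 2.56, and Xbp1 by 0.87 and 2.43. Atf6 was at 0.21 at 1 h (adjusted p = 0.06991) and rose by 2.85 at 8 h.

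The summed oligodendrocyte lineage markers moved with this result: 6570 to 7304 CPM in untreated cells at 8 h and 2847 to 3368 CPM with thapsigargin, with 5 of the 8 called lower. The neuron markers went from 73.2 to 82.8 CPM to 207 to 227 CPM (5 of 7 tested called higher), and the astrocyte markers from 295 to 391 CPM to 220 to 259 CPM. In bulk libraries fewer cells of a type and less RNA per cell cannot be told apart, and the part of these shifts in the rise of the 36 genes was not tested. At 1 h the lineage markers were at 6424 to 7293 CPM with thapsigargin and 6448 to 6925 CPM untreated, with 0 of 8 called.

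**Figure D4:**
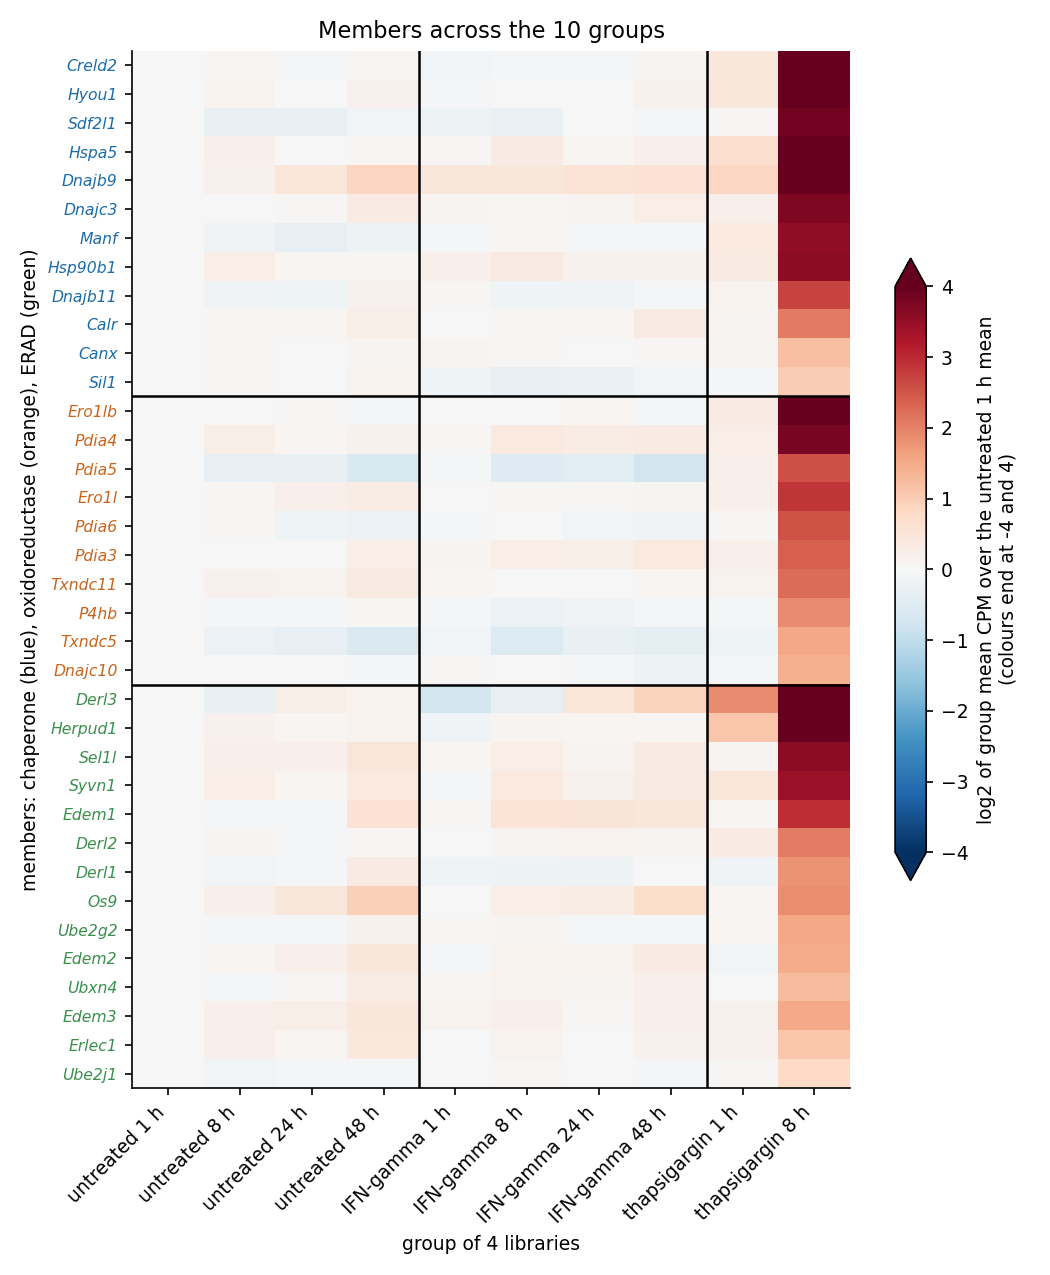
Log2 of each gene's mean CPM in the 10 groups over its mean in untreated cells at 1 h (colour, which ends at -4 and 4), with genes by class in rows. The thapsigargin 8 h column is the one with strong colour throughout, while the IFN-gamma and untreated columns stay pale.

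IFN-gamma left the 36 genes near their untreated levels. At 1 h 0 of the 36 were called (1.08% of all genes were called higher and 0.211% lower). An unadjusted p under 0.05 was found in 5 of the 36 and in 1591 of all 15135 genes. DESeq2, and an edgeR fit of the 2 groups alone, each called 1 gene, Dnajb9. Dnajb9 was at 11.2, 11.1, 9.31 and 10.2 CPM untreated and at 14.7, 14.9, 13.6 and 14.4 CPM with IFN-gamma, without overlap. Its log2 fold change was 0.46 with an adjusted p of 0.06051, against 0.03266 by DESeq2 and 0.02338 in the fit of the 2 groups.

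At 8 h of IFN-gamma 4 genes were called higher and 4 lower, against 13.1% and 12.1% of all genes, and the median over the 36 was 0.02. The largest rise was that of Edem1, from 53.7, 48.4, 52.9 and 53.8 CPM untreated to 86.5, 77.8, 77.1 and 80.7 CPM (0.63 ± 0.11, adjusted p = 2.75e-05). Every IFN-gamma library lay above every untreated one. Pdia3 (0.24 ± 0.08), Ubxn4 (0.18 ± 0.07) and Ube2j1 (0.14 ± 0.05) were higher by less. Pdia3, which is also part of the loading of peptides on MHC class I, was at 302, 242, 314 and 311 CPM untreated and at 332, 337, 362 and 353 CPM treated. Ubxn4 was at 113 to 117 CPM untreated and at 125 to 137 CPM treated.

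Sil1 was the most lowered, at 21.9, 23.2, 18.9 and 20.3 CPM untreated and 16.1, 16.5, 16.2 and 17.3 CPM with IFN-gamma (-0.36 ± 0.09, adjusted p = 0.001475). Txndc5, an isomerase with 3 thioredoxin-like domains, was at 71.6 to 87.7 CPM untreated and at 58.8 to 70.2 CPM treated (-0.31 ± 0.08). Txndc11 (-0.19) and P4hb (-0.17) were also lower. Of 17 alternatives, the call was lost in 11 for Txndc11, 8 for P4hb, 8 for Ubxn4 and 7 for Ube2j1. It was lost in 5 for Pdia3 and in 1 each for Sil1 and Txndc5. Without untreated 8 h replicate 2 the count of 8 became 5, and without IFN-gamma 8 h replicate 3 it became 4. Edem1 was called in all 17 alternative analyses of this comparison, at 0.56 to 0.67, including the 2 ranges of library numbers alone (0.66 and 0.56). With the level of Y-linked genes as a covariate it was 0.61, while Ubxn4 was no longer called (adjusted p = 0.06308).

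At 24 h 5 genes were higher and 2 lower, against 12.6% and 10.5% of all genes, with a median of 0.03 over the 36. Edem1 was again highest, from 47.5, 51.0, 49.0 and 59.8 CPM untreated to 81.7, 74.2, 80.8 and 81.1 CPM (0.62 ± 0.11, adjusted p = 4.545e-05), without overlap. It too was called in all 17 alternatives, at 0.57 to 0.70. Sdf2l1 was at 42.1 to 49.2 CPM untreated and 51.8 to 64.3 CPM treated (0.29 ± 0.10), and Manf at 105 to 120 CPM untreated and 129 to 154 CPM treated (0.28 ± 0.09). Pdia3 (0.27) and Pdia4 (0.22) were also higher. Sil1 (18.3 to 21.4 CPM untreated, 16.03 to 17.5 CPM treated) and Edem3 were lower, by -0.26 and -0.16. Of the 17 alternatives, the call was lost in 10 for Edem3, 9 for Sil1 and 5 each for Manf and Sdf2l1. It was lost in 2 each for Pdia3 and Pdia4. The count of 7 became 4 without untreated replicate 2, without untreated replicate 4 or without IFN-gamma replicate 1. With the Y-linked level as a covariate Sil1 (adjusted p = 0.0554) and Manf (0.05276) were no longer called.

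At 48 h 2 genes were higher (Txndc5, 0.19, and Pdia4, 0.17) and 9 lower, against 16.9% and 19.9% of all genes, with a median of -0.07. The lower ones were Derl1 (-0.31), Txndc11 (-0.28), Sil1 (-0.26), Erlec1 (-0.26), Edem3 (-0.23), Ube2g2 (-0.22), P4hb (-0.17), Sel1l (-0.16) and Dnajc10 (-0.13). Txndc11, a thioredoxin-domain protein of the ER membrane, was at 36.3 to 41.1 CPM untreated and at 30.4 to 34.8 CPM treated, without overlap. Derl1 was at 116, 85.8, 120 and 113 CPM untreated and at 73.7, 92.6, 98.7 and 85.3 CPM treated, with overlap. The count of 11 became 6 without IFN-gamma 48 h replicate 1. It became 7 without IFN-gamma replicate 4, untreated replicate 3 or untreated replicate 4, and 16 (2 higher, 14 lower) without untreated replicate 2. The upper 20 library numbers alone gave 4 higher and 4 lower, and the lower 20 alone 0 higher and 2 lower. A fit of the 2 groups alone gave 1. Of 17 alternatives, the call was lost in 12 for Sel1l, 9 for Txndc5, 8 for Ube2g2 and 7 each for Erlec1, P4hb and Pdia4. It was lost in 5 for Dnajc10, 4 for Sil1, 2 each for Derl1 and Edem3 and 1 for Txndc11. With the Y-linked level as a covariate Txndc5 (adjusted p = 0.102) and Sel1l (0.1112) were no longer called.

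Edem1 was no longer above the untreated cells at 48 h: IFN-gamma libraries were at 73.1, 70.2, 83.5 and 75.9 CPM and untreated ones at 90.6, 51.5, 102 and 89.4 CPM (-0.14 ± 0.11, adjusted p = 0.3414). Untreated replicate 2 stood apart from the other 3. Without it Edem1 was called lower (-0.31 ± 0.07, adjusted p = 0.0007805). That library also had the lowest oligodendrocyte lineage level of its group, 8171 CPM against 13930 to 17480 CPM in the other 3. The change of the Edem1 effect from 24 h to 48 h was not tested.

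Markers of cell types moved with IFN-gamma. The lineage markers were at 4985 to 5450, 5887 to 6865 and 6286 to 8423 CPM at 8, 24 and 48 h of IFN-gamma, against 6570 to 7304, 7427 to 8857 and 8171 to 17480 CPM in untreated cells of those times. Neuron markers were at 314 to 368, 173 to 237 and 161 to 223 CPM, against 73.2 to 82.8, 69.2 to 78 and 78.4 to 92.8 CPM untreated. Astrocyte markers were at 433 to 494, 473 to 529.8 and 412 to 471 CPM, against 295 to 391, 287 to 346 and 347 to 452 CPM. Their part in the small IFN-gamma changes was not tested. Compared directly at 8 h, all 36 genes were higher with thapsigargin than with IFN-gamma and 0 were lower (29.9% and 31.5% of all genes), with a median of 2.49. Leaving aside Derl3 (8.80), all 35 were higher, and the difference ran from 0.74 (Ube2j1) to 5.12 (Herpud1), with a median of 2.40. For Edem1, the gene that IFN-gamma raised most, the difference was 2.40 ± 0.11.

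**Figure D5:**
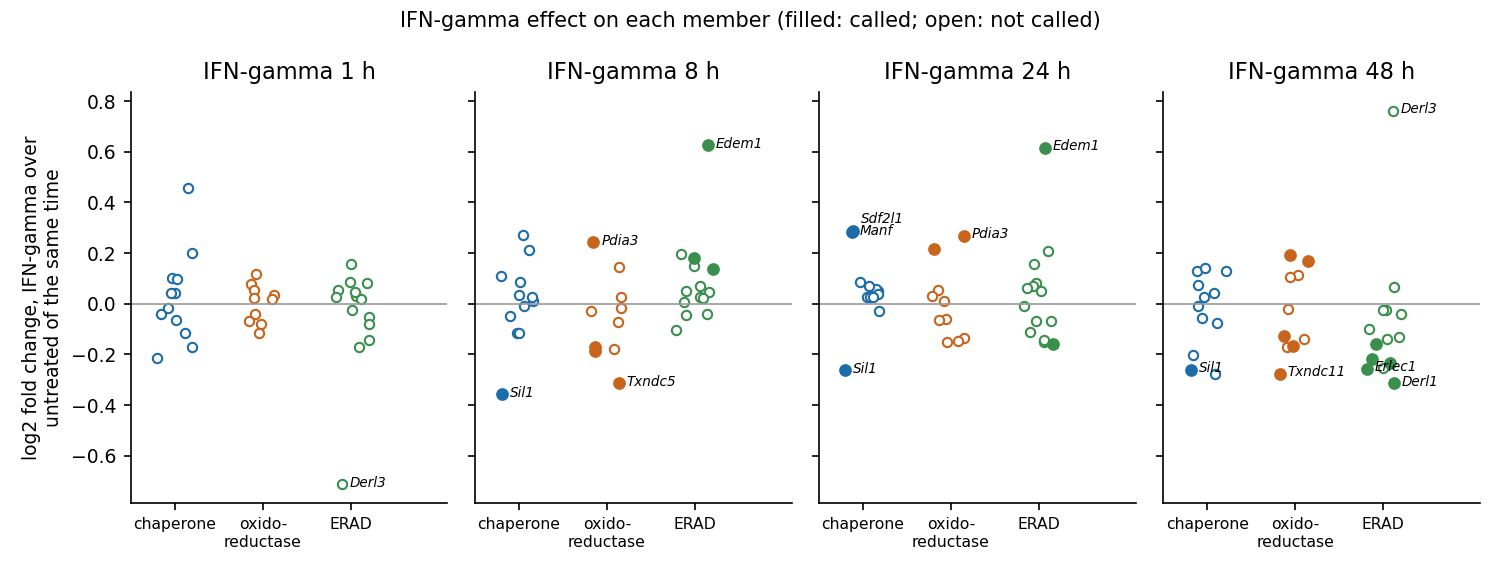
Log2 fold change of each gene with IFN-gamma against untreated cells of the same time, by class, in 1 panel per time (filled, called; open, not called). Edem1 stands above the other genes at 8 h (0.63) and 24 h (0.62), and most called genes at 48 h lie below 0.

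Untreated cells left to differentiate further also differed between times. The 3 comparisons that follow share the untreated 1 h libraries. Between 1 h and 8 h 4 genes were higher and 0 lower, against 4.77% and 2.16% of all genes. They were Hsp90b1 (0.26), Pdia4 (0.24), Sel1l (0.21) and Edem3 (0.21). Hsp90b1 was at 570 to 626 CPM at 1 h and 662 to 797 CPM at 8 h, and Sel1l at 152 to 167 CPM and 181 to 195 CPM. This count moved between 1 and 7 with single libraries, to 2 without untreated 1 h replicate 1, to 7 (4 higher, 3 lower) without untreated 8 h replicate 1 and to 1 without untreated 8 h replicate 4. DESeq2, and a fit of the 2 groups alone, each gave 5 higher and 2 lower.

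Between 1 h and 24 h 4 genes were higher and 4 lower, against 13.9% and 14.4% of all genes. Dnajb9 (0.49 ± 0.12), Os9 (0.46 ± 0.11), Edem3 (0.22) and Sel1l (0.21) were higher. Txndc5 (-0.32 ± 0.07), Manf (-0.32), Sdf2l1 (-0.29) and Pdia6 (-0.18) were lower. Os9 was at 110.1 to 121 CPM at 1 h and at 142, 143, 148 and 193 CPM at 24 h. Leaving out untreated 1 h replicate 1 or 2, or 24 h replicate 4, gave 5 calls each.

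Between 1 h and 48 h 17 genes were higher and 3 lower, against 31.9% and 30.4% of all genes, with a median of 0.16. By class 9 of 14 ERAD genes were higher (median 0.35), 4 of 12 chaperones (0.13) and 4 of 10 oxidoreductases (0.02), and all 3 lowered genes were oxidoreductases. Os9 rose most: it was at 111, 110.1, 115 and 121 CPM at 1 h and at 245, 180, 228 and 228 CPM at 48 h (0.95 ± 0.11, adjusted p = 1.586e-08). Every library of the later group lay above the earlier one. Dnajb9 was at 9.31 to 11.2 CPM and then 15.3 to 22.9 CPM (0.85 ± 0.12). Edem1 was at 51.9 to 58.03 CPM and then at 51.5 to 102 CPM (0.59 ± 0.11), overlapping through untreated 48 h replicate 2. Without that library it was 0.80 ± 0.07.

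The other ERAD genes that rose by 48 h were Sel1l (0.48), Edem2 (0.45), Edem3 (0.44), Erlec1 (0.42), Syvn1 (0.38), Derl1 (0.32) and Ubxn4 (0.29). Txndc11 (0.37), Dnajc3 (0.33), Ero1l (0.29), Pdia3 (0.28), Calr (0.25), Hyou1 (0.18) and Pdia4 (0.17) rose as well. Txndc5 fell from 89.1, 94.4, 99.3 and 90.2 CPM to 64.9, 69.1, 54.6 and 60.2 CPM (-0.58 ± 0.08, adjusted p = 4.809e-08), without overlap. Pdia5 fell from 6.73 to 7.77 CPM down to 3.93 to 5.74 CPM (-0.60 ± 0.17), and Pdia6 by -0.24. The lineage markers were at 8171 to 17480 CPM at 48 h, against 6448 to 6925 CPM at 1 h. Of the 7 astrocyte markers 5 were called higher and 1 lower at 48 h (median 1.53), and of 7 tested neuron markers 1 was higher and 4 lower (median -0.72). Their part in these changes was not tested. The lower 20 library numbers alone gave 11 calls.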

How the data were processed

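Reads on genes were deposited by the authors as whole-number counts per Ensembl gene, and a second deposited table holds estimated counts per transcript, which were summed per gene and rounded for 1 alternative. The tools listed, per the submitters' processing notes, are edgeR, featureCounts, kallisto and STAR, without versions. The build is not given in the sources used here, nor is the strand setting of the counts, so antisense overlaps could not be told apart. Symbols from a reference table of gene names were matched for 38872 of 39056 identifiers. Groups came from the labels, 4 libraries each. The 36 genes, their classes and the lists of other genes were chosen with earlier results of these data known.

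Counts of all 40 libraries were fitted at once with edgeR 4.0.16 (R 4.3.3): filterByExpr by group, TMM scaling, a mean per group, 30 residual degrees of freedom, and the quasi-likelihood test with Benjamini-Hochberg adjustment over 15135 genes. A gene was called at an adjusted p under 0.05. Errors of fold changes are standard errors, and the prior count was 0.125. Levels are CPM on TMM-scaled totals, and levels per kilobase divide these by the length of all exons of a gene in the GENCODE mouse annotation, which also gave the gene of each transcript. The fit was tested on simulated data. Genes given with the value of each library were, in the thapsigargin comparisons, up to 4 called genes per class with the largest change and the least changed uncalled gene of each class, and elsewhere up to 3 per direction. No 2 libraries agreed within sampling noise. DESeq2 1.42.0, RLE size factors, no filter, blocks, subsets of libraries and leaving out each library were the alternatives.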

Additional observations from a re-analysis of the deposited data

Results flagged for a closer look

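The thapsigargin effect differed between 8 h and 1 h in all 36 genes by the test of that difference. Without Derl3, whose calls are not counted as support, it differed in all 35. Of all genes 22.7% were called higher and 24.8% lower by the same test. Among chaperones the 8 h effect exceeded the 1 h effect (log2) by 4.45 in Creld2, 4.08 in Sdf2l1, 3.81 in Hyou1, 3.48 in Dnajc3, 3.29 in Hspa5, 3.27 in Manf, 2.999 in Dnajb9, 2.97 in Hsp90b1, 2.72 in Dnajb11, 1.89 in Calr, 1.07 in Canx and 1.01 in Sil1. Among oxidoreductases it was 3.72 in Ero1lb, 3.30 in Pdia4, 2.69 in Pdia5, 2.59 in Ero1l, 2.46 in Pdia6, 2.19 in Pdia3, 2.01 in P4hb, 1.95 in Txndc5, 1.93 in Txndc11 and 1.44 in Dnajc10. Among ERAD genes it was 7.02 in Derl3, 3.96 in Herpud1, 3.25 in Sel1l, 2.96 in Edem1, 2.73 in Syvn1, 2.05 in Derl1, 1.61 in Os9, 1.60 in Derl2, 1.55 in Ube2g2, 1.48 in Edem2, 1.30 in Ubxn4, 1.13 in Edem3, 0.83 in Ube2j1 and 0.74 in Erlec1.

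In 11 of 138 groups of 4 libraries examined, 1 library lay far from the other 3, which chance gives in about 1 group in 20. In untreated cells at 48 h replicate 2 had the lowest summed chaperone (3468 CPM) and oxidoreductase (1427 CPM) levels. In untreated cells at 24 h replicate 4 had the highest summed ERAD level (1066 CPM). At 8 h untreated, replicate 1 was high for Sdf2l1 (53.8 CPM), replicate 4 high for Sel1l (195 CPM), and replicate 2 low for Edem1 (48.4 CPM) and Pdia3 (242 CPM). Untreated 1 h replicate 1 was low for Pdia4 (196 CPM), and thapsigargin 1 h replicate 4 was high for Hyou1 (241 CPM). In thapsigargin at 8 h 1 library was apart for Derl2 (176 CPM) and 1 for Os9 (396 CPM).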

How the results depend on the processing

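The 36 calls of thapsigargin at 8 h, of its excess over 1 h and of its excess over IFN-gamma at 8 h held in every alternative. Derl3, which passed the filter only through thapsigargin-treated libraries, is among the 36, and its calls are not counted as support. No sign changed among the genes called in comparisons of a treatment with untreated cells. Signs of genes not called, and of genes in the untreated comparisons, were not checked. The lower 20 library numbers alone gave 2 calls for thapsigargin at 1 h, 4, 1 and 2 for IFN-gamma at 8, 24 and 48 h, and 0, 1 and 11 for untreated 8, 24 and 48 h against 1 h. The upper 20 alone gave 2 for IFN-gamma at 8 h, 3 at 24 h, and 0 and 5 for untreated 8 h and 24 h. These subsets hold fewer samples. Without the filter there were 4 and 3 calls for IFN-gamma at 8 h and 48 h and 2 for untreated 8 h. A fit of only the groups compared gave 1 for IFN-gamma at 1 h, 1 at 48 h and 7 for untreated 8 h, and DESeq2 gave 1 for IFN-gamma at 1 h and 7 for untreated 8 h (5 higher and 2 lower in both). The transcript table gave 3, 3 and 6 for IFN-gamma at 8, 24 and 48 h. The cause was not tested. Leaving out 1 library gave 10 to 13 calls for thapsigargin at 1 h, 36 to 36 at 8 h and in its differences, 0 to 0, 4 to 9, 4 to 7 and 6 to 16 for IFN-gamma at 1, 8, 24 and 48 h, and 1 to 7, 5 to 8 and 20 to 24 for untreated 8, 24 and 48 h. No paired analysis was possible because the labels give no replicate numbers shared between groups; with the range of library numbers as a block there were 13 calls for thapsigargin at 1 h, 9, 7 and 12 for IFN-gamma at 8, 24 and 48 h, and 5, 8 and 20 for untreated 8, 24 and 48 h. Depth limits Derl3, with 13 reads in all 4 untreated libraries at 8 h.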
